A study of Mus musculus with 23 samples.

Results

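Lipoprotein lipase (Lpl) and 8 genes that act beside it in lipid uptake were followed in the quadriceps muscle and epididymal fat of mice with pancreatic tumors. The members were Lpl, Gpihbp1, Lmf1, Cd36, Fabp3, Fabp5, Slc27a1, Vldlr and Lrp1. They were taken by gene symbol from a fixed list, and all 9 had a row in both count tables, being 9 of 12831 genes in the quadriceps table and 9 of 16962 in the fat table. RNA sequencing had been done on 11 quadriceps samples and 12 epididymal fat samples from male C57BL/6J mice that were 8 weeks old at the start. RNA isolation and sequencing of the muscle and fat samples were done separately per the labels, and no source used here says whether a muscle and a fat sample came from the same mouse.

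Mice labelled no tumor had sham surgery (3 quadriceps, 4 fat samples). The paper reports that a further no tumor muscle sample was left out as an outlier. Mice labelled KPC (4 and 4) had cells of a mouse pancreatic tumor line named KPC injected into the pancreas. These cells were a single clone that had been through CRISPR/Cas9 transfection with a null guide RNA. Mice labelled KPC IL6KO (4 and 4) received a single clone of the same line in which the gene for interleukin 6, Il6, had been edited. The hosts themselves were not edited, so only tumor cells lacked Il6, and each tumor genotype rested on 1 clone. All groups were euthanized when KPC mice reached the humane endpoint. The paper reports larger tumors in KPC than in KPC IL6KO mice, and no correlation of tumor mass with muscle or fat pad mass. Tumor size was not part of the tests below. Each p-value below measures only the spread between mice carrying the same clone.

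Lipoprotein lipase is made by muscle fibers and adipocytes and cleaves the triglycerides of circulating lipoproteins at the capillary wall. Lmf1, a chaperone of the endoplasmic reticulum, is needed for the lipase to mature, and Gpihbp1, a protein of capillary endothelial cells, carries the lipase to the vessel lumen and anchors it there. The fatty acids set free enter cells with the help of Cd36 and Slc27a1 (fatty acid transport protein 1) and are carried in the cytosol by binding proteins such as Fabp3, the heart and muscle form, and Fabp5, the epidermal form. Vldlr and Lrp1 are receptors that bind lipoproteins and their remnants.

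Total counts per library were 19259763 to 74907810 in the quadriceps and 26306377 to 56308545 in fat, and 3 counts corresponded to at most 0.154 CPM (counts scaled to the same total per library) in muscle and 0.123 CPM in fat. Depth did not limit the muscle values, since the lowest member there, Fabp5, stayed at 2.80 CPM or more in every library. Cell markers of the labelled tissue were present in both. Summed muscle fiber markers in the quadriceps were 185973 to 231383 CPM without tumor, 146704 to 166789 CPM in KPC mice and 214129 to 231590 CPM in KPC IL6KO mice. In fat, summed adipocyte markers spanned 1406 to 23292 CPM without tumor, 1681 to 5916 CPM in KPC mice and 3948 to 16304 CPM in KPC IL6KO mice. The fat pads also differed in Gpx5, a gene of the epididymis, which lies against this pad: it was above 1000 CPM in no tumor mice 5 and 7, in all 4 KPC mice and in KPC IL6KO mouse 6.

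In quadriceps, mice with KPC tumors had more Vldlr, Cd36 and Gpihbp1 mRNA than mice without tumor, and less Fabp5. Vldlr was 4.31-fold, Cd36 2.28-fold and Gpihbp1 1.52-fold higher, and Fabp5 was 2.77-fold lower. Among all genes of the muscle, 26.7% were called higher and 29.0% lower in this comparison. The Gpihbp1 call was lost in several alternative runs. None of the 9 members, and 0% of all genes, passed the test in mice with KPC IL6KO tumors against no tumor. The same 4 members differed directly between the KPC and KPC IL6KO groups, beside 26.4% of all genes called higher and 27.3% lower. The level of Lpl itself did not pass the test in any comparison of either tissue by edgeR's quasi-likelihood test. A gene was called when its false discovery rate (FDR, the Benjamini-Hochberg adjusted p of that test over all genes of the tissue) was at most 0.05 and its fold at least 1.5.

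**Figure D1:**
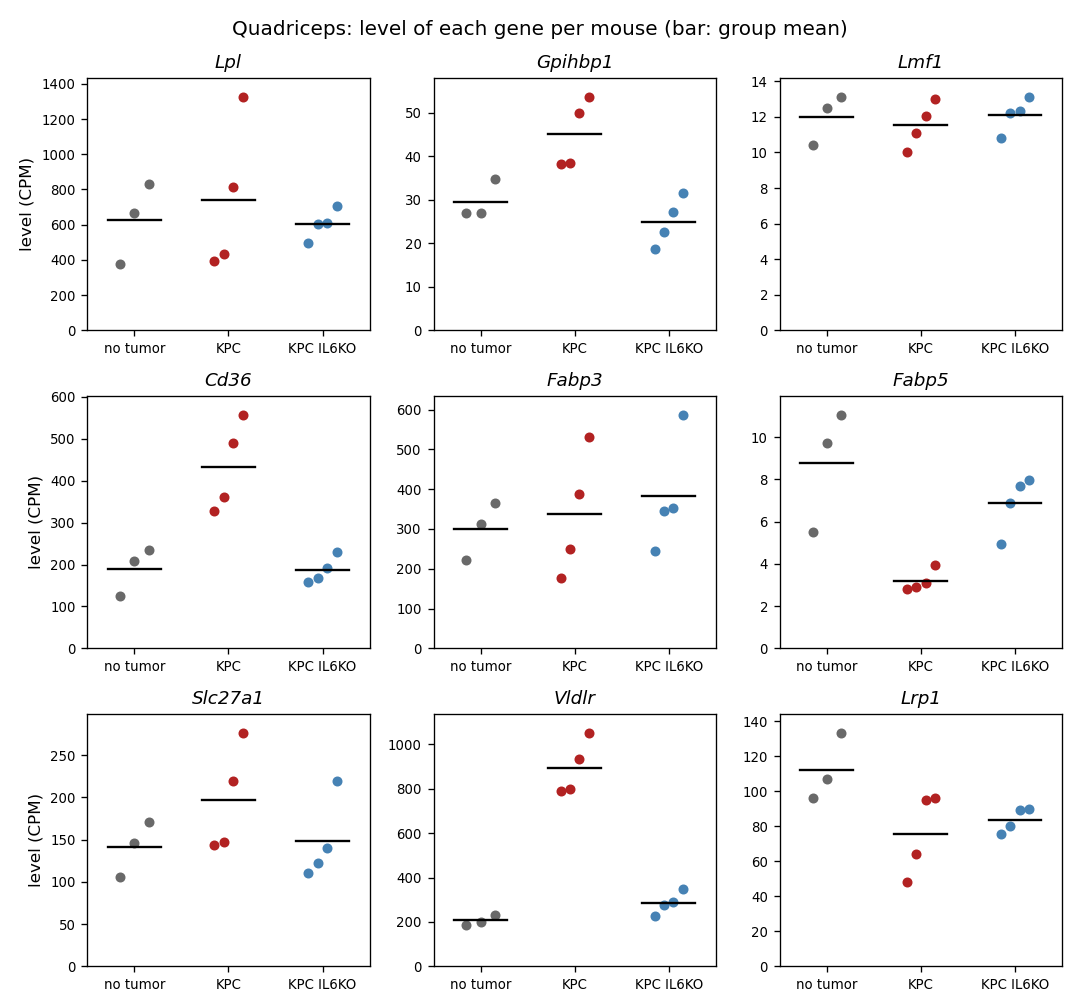
Level of each of the 9 members in the quadriceps, as normalized CPM on axes that start at 0, with one point per mouse and a bar at the mean of each group (no tumor, n = 3; KPC, n = 4; KPC IL6KO, n = 4). All 4 KPC mice lie above all other mice for Vldlr, Cd36 and Gpihbp1 and below them for Fabp5, while the groups overlap for Lpl, Lmf1, Fabp3 and Slc27a1.

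Promoter sequence is shown for Vldlr and Cd36, the members called higher in KPC muscle that had an entry. Of the 9 members, 6 had entries in the RefSeq promoter table (GRCm38.p6), which held 9 entries for them. Lpl, Gpihbp1 and Fabp5 had no entry. Each line gives the 250 bases before a transcript start in the sense of the gene, 5′ to 3′, in lower case with motif matches in capitals.
Vldlr, chr19:27216770-27217019, plus strand: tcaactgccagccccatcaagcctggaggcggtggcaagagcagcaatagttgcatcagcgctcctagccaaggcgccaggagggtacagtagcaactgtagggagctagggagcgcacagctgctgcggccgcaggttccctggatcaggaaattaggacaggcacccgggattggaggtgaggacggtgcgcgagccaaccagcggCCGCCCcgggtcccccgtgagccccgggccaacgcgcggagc
Cd36, chr5:17835897-17836146, minus strand: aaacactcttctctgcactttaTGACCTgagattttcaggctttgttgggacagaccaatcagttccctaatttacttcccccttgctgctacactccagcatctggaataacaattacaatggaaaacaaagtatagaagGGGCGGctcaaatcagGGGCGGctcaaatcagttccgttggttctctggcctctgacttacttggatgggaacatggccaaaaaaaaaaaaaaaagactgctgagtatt

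The 5 motifs searched on both strands were GGGCGG (the GC box), AGGTCA (the core of nuclear receptor elements), TTCNNNGAA (the STAT element), ACGTG (the hypoxia response core) and TGTTTAC (the FoxO element). They were present in 32.7%, 14%, 7.02%, 16.6% and 3.17% of the 32851 mouse promoters of the same length, in that order. Matches of different motifs did not overlap in the windows shown. The Vldlr window held 1 GC box, on the reverse strand, and had a GC content of 66.4%. The Cd36 window held 2 GC boxes on the gene's strand and 1 nuclear receptor core on the reverse strand, with a GC content of 43.2% against a median of 52.4% over all promoters searched. A second Vldlr entry, chr19:27216234-27216483, held none of the 5. The start site behind the Cd36 entry is not a start in the GENCODE annotation used for gene positions. Each match describes the letters of the window and is not a measured binding site.

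Of the lipase and its handling proteins in muscle, Lpl (chr8:68880491-68907448, plus strand, GRCm38) was measured at 667, 829 and 379 CPM in the no tumor mice, 432, 814, 392 and 1325 CPM in KPC mice, and 495, 608, 706 and 605 CPM in KPC IL6KO mice. KPC mice 1 and 3 lay close to the lowest no tumor mouse and KPC mouse 4 above every other mouse, so the groups overlapped. The log2 fold change of KPC against no tumor was 0.25 (SE 0.39, FDR 0.590) with a 95% interval from -0.60 to 1.09, so a 1.5-fold rise and a 1.5-fold fall both lay within the interval. Without KPC mouse 4 the log2 fold change was -0.20.

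Gpihbp1 (chr15:75596628-75599481, plus strand), the endothelial anchor of the lipase, was at 26.96, 34.8 and 26.997 CPM without tumor, 38.2, 49.999, 38.3 and 53.6 CPM with KPC tumors and 18.7, 22.5, 31.5 and 27.1 CPM with KPC IL6KO tumors. Every KPC mouse exceeded every other mouse. In log2 terms it differed by 0.60 (SE 0.19, FDR 0.0149) against no tumor and 0.85 (SE 0.18, FDR 0.00115) against KPC IL6KO. The fold of 1.52 against no tumor lay close to the limit of 1.5. The call was lost, at log2 fold changes of 0.51 to 0.58, when no tumor mouse 1 or 3 or KPC mouse 2 or 4 was left out and with a minimum of 10 counts in every library, and it was lost at 0.29 with upper quartile scaling, which also ended the call against KPC IL6KO (0.55). Relative to the median log2 fold change of all genes, Gpihbp1 stood at 0.65 with that scaling and at 0.64 without it.

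The capillary itself was represented by 14 endothelial marker genes, all present in the muscle table. Of the 14, 1 rose (Cldn5) and 3 fell in KPC against no tumor, beside 26.7% and 29.0% of all genes. In KPC against KPC IL6KO, 1 rose and 5 fell, beside 26.4% and 27.3% of all genes. The marker sum was 411 to 544 CPM without tumor, 400 to 665 CPM in KPC and 503 to 619 CPM in KPC IL6KO muscle. As a percentage of that sum, Gpihbp1 was 5.16, 6.39 and 6.57 without tumor, 9.54, 9.18, 8.76 and 8.05 with KPC tumors and 3.39, 3.91, 5.10 and 5.40 with KPC IL6KO tumors. The KPC group again lay above both others without overlap. The log2 difference of the ratios was 0.56 against no tumor and 1.02 against KPC IL6KO, each with p = 0.0286 by exact two-sided permutation, the smallest p these group sizes allow, and 0.0643 after adjustment over the 9 ratio comparisons made. In bulk tissue, fewer cells of a type and less RNA per cell cannot be told apart.

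Lmf1 (chr17:25579085-25662826, plus strand), the lipase chaperone, differed little between mice in muscle. It was at 13.1, 12.5 and 10.4 CPM without tumor, 11.1, 12.03, 9.999 and 12.99 CPM in KPC mice and 12.3, 13.1, 12.2 and 10.8 CPM in KPC IL6KO mice. The groups overlapped, with a log2 fold change of -0.06 (SE 0.13, FDR 0.678) for KPC against no tumor.

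Cd36 (chr5:17781690-17888801, minus strand), the scavenger receptor that facilitates fatty acid uptake, was at 208, 236 and 126 CPM without tumor, 327, 362, 490 and 557 CPM in KPC muscle and 168, 158, 231 and 191 CPM in KPC IL6KO muscle. No KPC value overlapped either other group, and the latter groups overlapped each other. Its log2 fold change was 1.19 (SE 0.25, FDR 0.00112) against no tumor and 1.21 (SE 0.22, FDR 0.000493) against KPC IL6KO, and -0.02 for KPC IL6KO against no tumor.

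Slc27a1 (chr8:71568882-71587302, plus strand), the other membrane transporter of fatty acids among the members, was at 146, 171 and 106 CPM without tumor, 147, 276, 143 and 219 CPM in KPC mice and 140, 111, 220 and 123 CPM in KPC IL6KO mice. KPC mice 2 and 4 were higher than every mouse without tumor, but the other KPC mice were not. The log2 fold changes of 0.47 (SE 0.29, FDR 0.159) against no tumor and 0.41 against KPC IL6KO did not pass the test. Without KPC IL6KO mouse 3 the latter was 0.66 and was called (FDR 0.0361).

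The 2 cytosolic binding proteins differed in their patterns. Fabp3 (chr4:130308595-130315463, plus strand), the main form in muscle, was at 366, 312 and 221 CPM without tumor, 178, 249, 389 and 531 CPM in KPC mice and 345, 354, 586 and 245 CPM in KPC IL6KO mice, with wide overlap and a log2 fold change of 0.17 (SE 0.36, FDR 0.696) for KPC against no tumor. Fabp5 (chr3:10012548-10016607, plus strand) was at 9.73, 11.1 and 5.53 CPM without tumor, 2.80, 3.12, 3.94 and 2.90 CPM in KPC mice and 7.68, 7.98, 6.91 and 4.94 CPM in KPC IL6KO mice. All KPC mice were below all others. Fabp5 fell by 1.47 on the log2 scale (SE 0.24, FDR 0.000243) against no tumor and by 1.11 (SE 0.23, FDR 0.00106) against KPC IL6KO.

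Of the receptors, Vldlr (chr19:27216484-27254231, plus strand), which binds triglyceride-rich lipoproteins, moved most of all 9 members. It was at 201, 189 and 232 CPM without tumor and at 1051, 933, 789 and 799 CPM in KPC mice, against 227, 275, 289 and 350 CPM in KPC IL6KO mice. The lowest KPC value was above the highest value of the other groups by more than their whole spread. For Vldlr the log2 fold change was 2.11 (SE 0.17, FDR 2.22e-06) against no tumor and 1.65 (SE 0.15, FDR 4.07e-06) against KPC IL6KO. Against no tumor, KPC IL6KO mice differed by 0.46 (SE 0.16, unadjusted p = 0.0135 by edgeR's quasi-likelihood test, FDR 0.513), with 3 of the 4 mice above the no tumor range.

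Lrp1 (chr10:127538161-127621148, minus strand), the large remnant receptor, was at 107, 133 and 96.1 CPM without tumor, 94.8, 96.3, 64.1 and 48.2 CPM in KPC mice and 90.0, 75.9, 80.3 and 89.2 CPM in KPC IL6KO mice. KPC mouse 2 marginally overlapped the lowest no tumor mouse, while no KPC IL6KO mouse did. The log2 fold change of KPC against no tumor was -0.56 with FDR 0.0355, short of the 1.5-fold limit. It became a call without no tumor mouse 3 (-0.66), KPC mouse 1 (-0.69) or KPC mouse 2 (-0.70). Without KPC mouse 4 it was -0.40, and the FDR reached 0.153 among the fits with single mice left out. KPC IL6KO against no tumor was -0.42 (FDR 0.802).

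In all, 3 of the 9 members rose and 1 fell in KPC against no tumor muscle, beside 26.7% of the 12831 genes called up and 29.0% called down. The ranges of 4 members did not overlap between these groups, against 65.3% of all genes. For KPC against KPC IL6KO the counts were again 3 up and 1 down, beside 26.4% and 27.3% of all genes, and 4 members had ranges without overlap, against 62%. These shares were near or below those of the whole table, and the 2 comparisons share the KPC mice. The median log2 fold change of the members was 0.25 and 0.29 in the 2 comparisons, against -0.03 and -0.01 for all genes. Upper quartile scaling moved the latter medians to -0.36 and -0.32 and the calls over all genes from 3428 up and 3719 down to 2209 and 5060 in the first comparison, and from 3381 and 3498 to 2183 and 4891 in the second.

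For KPC IL6KO against no tumor, 0 of 9 members were called in muscle, beside 0% of all genes up and 0% down by edgeR's quasi-likelihood test, and the range of 1 member (Lrp1) did not overlap, against 15.5% of all genes. At an unadjusted p under 0.05 there were 1 member (Vldlr) and 887 genes. DESeq2 called 30 genes up and 63 down in this comparison and edgeR's likelihood ratio test called 25 up and 70 down. The median of the members was -0.02 and that of all genes 0.00.

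**Figure D2:**
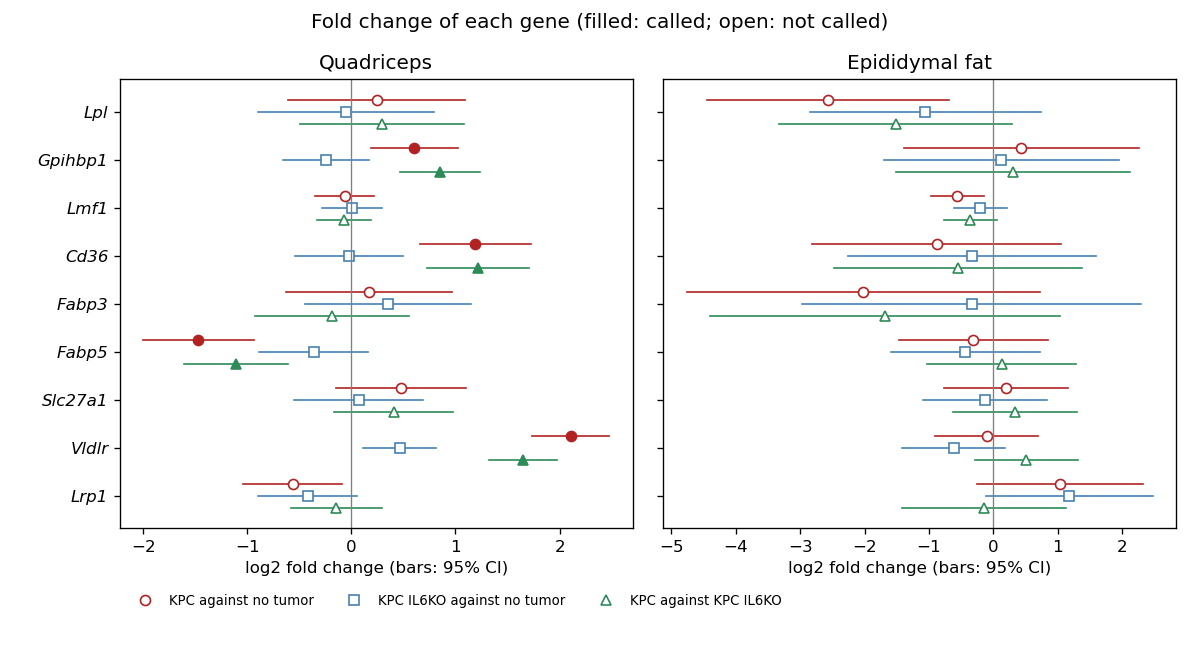
Log2 fold change of each member in the 3 comparisons of each tissue, with bars for the 95% interval and filled points for called members. In the quadriceps, Vldlr, Cd36 and Gpihbp1 stand to the right and Fabp5 to the left in both comparisons that involve KPC. In fat no member was called, and the intervals are wider than in muscle.

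Compared per kilobase of merged exon, levels in the quadriceps without tumor ran from Fabp3 (364 CPM per kb) through Lpl (59.6), Cd36 (52.9), Slc27a1 (24.2), Vldlr (20.6), Gpihbp1 (11.6), Lrp1 (6.33) and Fabp5 (2.46) to Lmf1 (0.884). Lpl and Cd36 overlapped between mice, as did Slc27a1 and Vldlr, and the other neighbours did not. In KPC muscle the order on the same scale was Fabp3 (409), Cd36 (121), Vldlr (88.7), Lpl (70.7), Slc27a1 (33.7), Gpihbp1 (17.6), Lrp1 (4.28), Fabp5 (0.894) and Lmf1 (0.848). In this order Vldlr stood ahead of Slc27a1 and Lpl, and Cd36 ahead of Lpl, although the mice overlapped for each step from Cd36 to Slc27a1 and from Fabp5 to Lmf1. With the length of the longest coding transcript in place of merged exons, Lpl stood ahead of Cd36 and Vldlr, and Lmf1 ahead of Lrp1 and Fabp5, in KPC muscle, and Fabp5 ahead of Lrp1 in muscle without tumor. KPC IL6KO muscle had Fabp3 at 465, Lpl at 57.6, Cd36 at 52.1 and Vldlr at 28.4 CPM per kb.

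**Figure D3:**
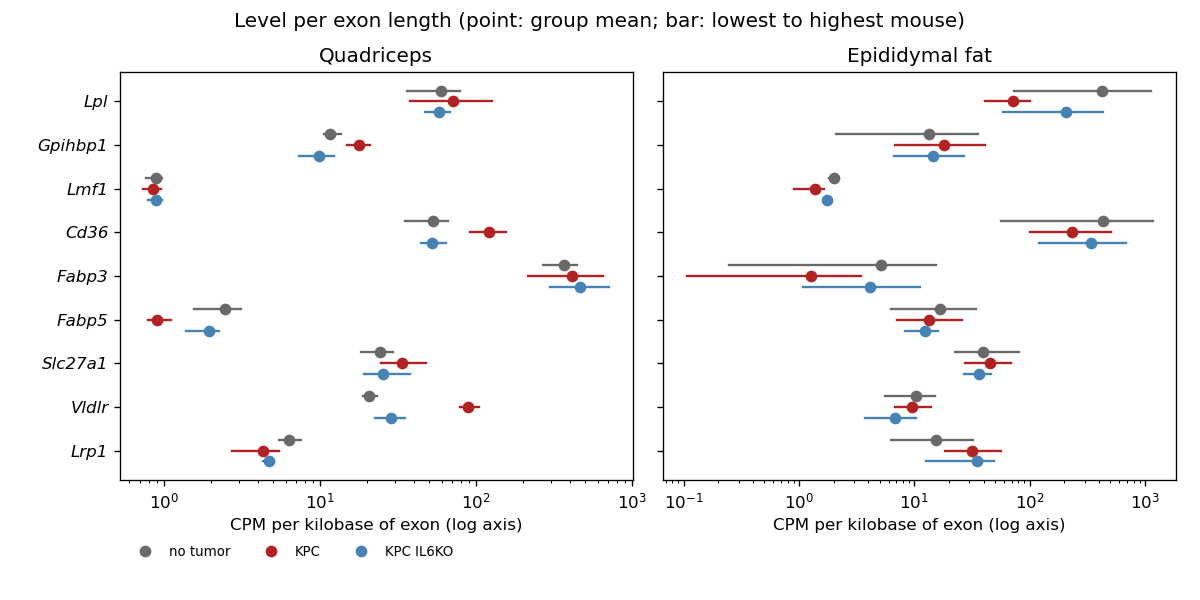
Mean CPM per kb of merged exon of the 9 members on a log axis, by tissue and group, with bars from the lowest to the highest mouse. Fabp3 is highest in every quadriceps group and lies near the bottom in fat, where Cd36 and Lpl lead without tumor.

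Of 19 listed partners and regulators of lipoprotein lipase, 13 were in the table, and 2 rose, 4 fell and 7 were not called in KPC against no tumor muscle, beside 26.7% of all genes up and 29.0% down. Both that rose were Apoc3, an apolipoprotein that inhibits the lipase, and Furin, a protease that cleaves the lipase and its regulators (log2 fold change 1.43). Apoc3 was at 3 counts or fewer in every no tumor library and at 0.847 to 4.82 CPM in KPC muscle, so no fold is given. Pcsk6, a protease of the same family, had the largest fall, from a mean of 30.4 to 4.21 CPM (log2 fold change -2.85), and Hspg2, the heparan sulfate proteoglycan perlecan, went from 265 to 84.1 CPM (-1.66). Angptl4, an inhibitor of the lipase, stood at 9.37 to 43.3 CPM without tumor and 14.4 to 28.1 CPM in KPC, with a log2 fold change of 0.00 (FDR 0.999). It was at 2.72 to 10.8 CPM in KPC IL6KO mice, and KPC against KPC IL6KO was called at 1.66 (FDR 0.00874). Apoe, a ligand of both member receptors, was not called (-0.19).

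Of 20 listed genes of fatty acid transport and activation, 13 were in the muscle table, and 2 rose and 6 fell in KPC against no tumor, beside the same 26.7% and 29.0% of all genes. Both that rose were acyl-CoA synthetases, Acsl6 from 24.3 to 138 CPM (log2 fold change 2.51) and Acsl3 from 22.3 to 44.3 CPM (1.00). Cav1, the caveolar coat protein, fell from 115 to 36.7 CPM (-1.64). Fabp4, the adipocyte binding protein (-0.87, FDR 0.111), Got2, the gene of the list with the highest mean over all muscle samples (-0.22), and Acsl1, the main synthetase of fat and muscle (-0.25), were not called. Of 20 listed lipoprotein receptors and regulators, 14 were in the table, with 3 up and 4 down, again beside 26.7% and 29.0%. Mylip, the ubiquitin ligase that degrades Vldlr and the LDL receptor, rose from 15.4 to 40.0 CPM (1.38), and Lrp4, a relative of Lrp1 at the neuromuscular junction, fell from 13.9 to 2.75 CPM (-2.34). Scarb2, the most abundant of them, was at 0.18 and was not called. Against no tumor, KPC IL6KO muscle had 0 calls in each list by edgeR's quasi-likelihood test, with 3, 3 and 2 genes at an unadjusted p under 0.05.

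Adipocyte markers in the muscle samples moved unevenly. Their sum was 1142 to 3101 CPM without tumor, 3809 to 4769 CPM in KPC mice and 668 to 1191 CPM in KPC IL6KO mice, and it was led by Plin4, a lipid droplet protein that muscle also expresses. Of 10 markers, Plin4 and Pnpla2 rose and Lep and Lipe fell in KPC against no tumor, beside 26.7% and 29.0% of all genes. By log2 fold change, called or not, 8 of the 10 were lower in KPC than no tumor muscle and 2 higher. All 10 were lower in KPC IL6KO than no tumor muscle, with 0 called. Adipoq, the more specific marker, was at 35.8 to 197 CPM without tumor, 0.828 to 94.0 CPM in KPC mice and 6.05 to 35.3 CPM in KPC IL6KO mice. Summed slow fiber markers, led by Myh7, were 81.8 to 328 CPM without tumor, 70.3 to 914 CPM in KPC mice and 307 to 810 CPM in KPC IL6KO mice, and summed macrophage markers were 126 to 183, 57.5 to 233 and 131 to 203 CPM. Summed neutrophil markers were 0.359 to 0.779 CPM without tumor, 4.50 to 21.8 CPM in KPC mice and 2.14 to 4.13 CPM in KPC IL6KO mice, so that both tumor groups lay above the no tumor range. The part of these cells in the levels of Cd36, Lpl and Fabp3 was not tested.

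In fat, no member was called in any of the 3 comparisons, while Lpl was lowest in KPC mice by mean. Lpl was at 1987, 11802, 765 and 3314 CPM in no tumor mice 5 to 8, 1063, 970, 431 and 546 CPM in KPC mice and 616, 2048, 4497 and 1445 CPM in KPC IL6KO mice. No tumor mouse 6 was far above the rest, and no tumor mouse 7 lay within the KPC range. The log2 fold change of KPC against no tumor was -2.57 (SE 0.86, unadjusted p = 0.0118 by edgeR's quasi-likelihood test, FDR 0.290). DESeq2 called it (-2.59, FDR 0.0244). Without no tumor mouse 6 the edgeR value was -1.43. With log2 Gpx5 as a covariate it was -1.79, and among the 2 no tumor and 4 KPC pads above 1000 CPM of Gpx5 it was -0.77.

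Because adipocyte RNA varied between pads, Lpl was also set against the sum of the adipocyte markers, which was led by Cfd. It was 54.2%, 50.7%, 54.4% and 41.9% of that sum without tumor, 17.97%, 27.5%, 15.9% and 32.5% in KPC mice and 15.6%, 41.5%, 27.6% and 20.5% in KPC IL6KO mice. The no tumor pads, so unlike in Lpl itself, lay close together on this scale and above every pad of both tumor groups. The lowest no tumor pad (41.9%) and the highest KPC IL6KO pad (41.5%) nearly touched. The log2 difference was -1.15 for KPC and -1.02 for KPC IL6KO, each with p = 0.0286 by exact two-sided permutation, the smallest p that 4 against 4 allow, and 0.0643 after adjustment over 9 ratio comparisons. The 2 tumor groups overlapped (-0.13, exact permutation p = 0.771). The choice of marker mattered: against Adipoq alone the KPC difference was -0.74, and against Plin1 alone it was -0.27 with overlapping groups. KPC IL6KO mouse 6 lay within the no tumor range against either gene, at 416% of Adipoq and 1151% of Plin1.

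**Figure D4:**
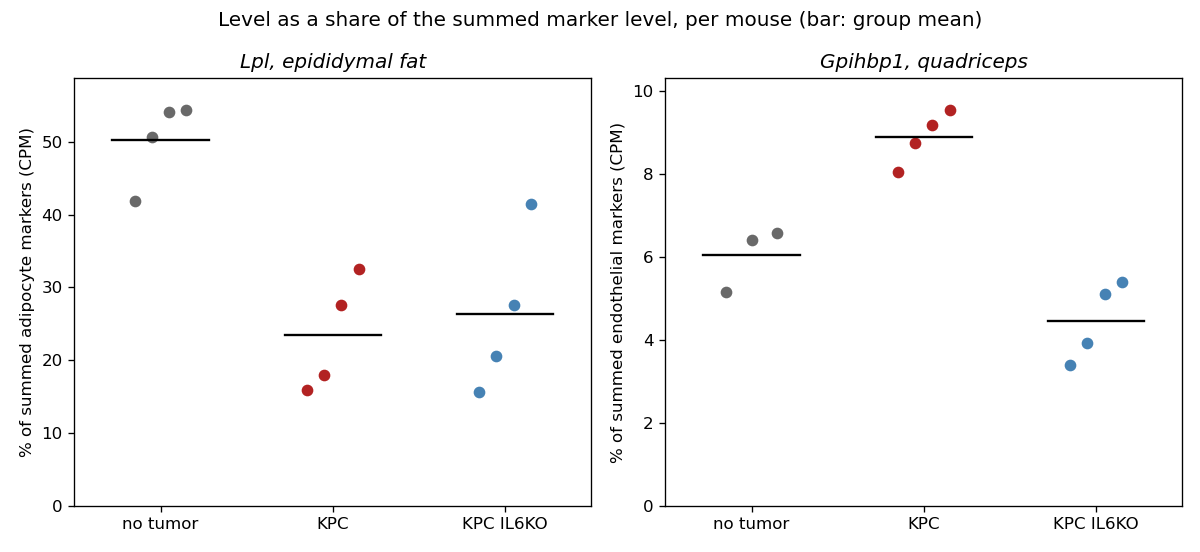
Lpl as a percentage of the summed adipocyte markers in fat, and Gpihbp1 as a percentage of the summed endothelial markers in quadriceps, with one point per mouse and a bar at the group mean. The no tumor pads, at 41.9% to 54.4%, lie above both tumor groups for Lpl, narrowly so for the highest KPC IL6KO pad at 41.5%. KPC muscle, at 8.05% to 9.54%, lies above the other groups for Gpihbp1.

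Gpihbp1 in fat was at 18.2, 91.2, 5.39 and 21.1 CPM without tumor, 105, 41.6, 17.4 and 19.9 CPM in KPC mice and 17.0, 21.5, 68.4 and 41.4 CPM in KPC IL6KO mice. The groups overlapped throughout, with log2 fold changes of 0.44 and 0.13 against no tumor. Summed endothelial markers overlapped as well, at 229 to 1130, 450 to 1390 and 459 to 1215 CPM. As a share of that sum Gpihbp1 differed by 0.07 on the log2 scale in KPC and by -0.12 in KPC IL6KO (exact permutation p = 0.943 and 0.8).

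Lmf1 was the only member in fat whose KPC values did not overlap another group. Over all genes in fat, 10.9% had no overlap in KPC against no tumor and 4.33% in KPC against KPC IL6KO. It was at 29.2, 28.0, 24.7 and 28.5 CPM without tumor, 12.2, 20.6, 22.6 and 19.5 CPM in KPC mice and 22.6, 25.8, 24.1 and 23.4 CPM in KPC IL6KO mice. The highest KPC pad and the lowest KPC IL6KO pad nearly touched. The log2 fold change against no tumor was -0.56 (SE 0.19, FDR 0.291) in KPC and -0.20 in KPC IL6KO. The KPC value was -0.57 with the Gpx5 covariate and -0.58 with summed adipocyte markers as a covariate.

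Cd36 in fat was at 642, 4185, 204 and 1151 CPM without tumor, 1810, 803, 378 and 364 CPM in KPC mice and 436, 777, 2447 and 1239 CPM in KPC IL6KO mice. The spread among no tumor pads exceeded any difference between groups. The log2 fold change of -0.88 for KPC against no tumor became 0.21 with the Gpx5 covariate and 0.33 without no tumor mouse 6. Slc27a1 was at 143, 472, 130 and 183 CPM without tumor, 404, 318, 185 and 160 CPM in KPC mice and 157, 225, 269 and 195 CPM in KPC IL6KO mice (log2 fold change of KPC against no tumor 0.20). Both transporters overlapped between all groups.

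Fabp5 ran from 22.3 to 123 CPM without tumor, 25.2 to 92.7 CPM in KPC mice and 29.9 to 56.8 CPM in KPC IL6KO mice. Fabp3 was scarce in fat, at 0.205, 1.76, 2.44 and 12.6 CPM without tumor, 0.0876, 0.487, 2.86 and 0.781 CPM in KPC mice and 2.04, 0.892, 1.46 and 9.20 CPM in KPC IL6KO mice. Its highest values, in no tumor mouse 8 and KPC IL6KO mouse 8, fell in the pads with the most RNA of muscle fiber markers in their groups, 336 and 2956 CPM. The part of muscle RNA in these Fabp3 values was not tested.

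Vldlr in fat was at 154, 120, 87.1 and 55.6 CPM without tumor, 89.3, 142, 69.1 and 87.2 CPM in KPC mice and 37.5, 103, 69.1 and 61.6 CPM in KPC IL6KO mice, with a log2 fold change of -0.10 for KPC against no tumor. Lrp1 was at 152, 573, 111 and 254 CPM without tumor, 1003, 530, 379 and 326 CPM in KPC mice and 579, 223, 794 and 877 CPM in KPC IL6KO mice. All KPC pads and 3 of 4 KPC IL6KO pads were above all no tumor pads other than mouse 6. The log2 fold changes against no tumor were 1.04 (FDR 0.528) and 1.18 (FDR 0.579), and 1.93 for KPC with the Gpx5 covariate. Macrophages also express Lrp1, and their summed markers were 338 to 1214 CPM without tumor, 1415 to 2173 CPM in KPC mice and 543 to 3342 CPM in KPC IL6KO mice. Their part in the Lrp1 values was not tested.

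**Figure D5:**
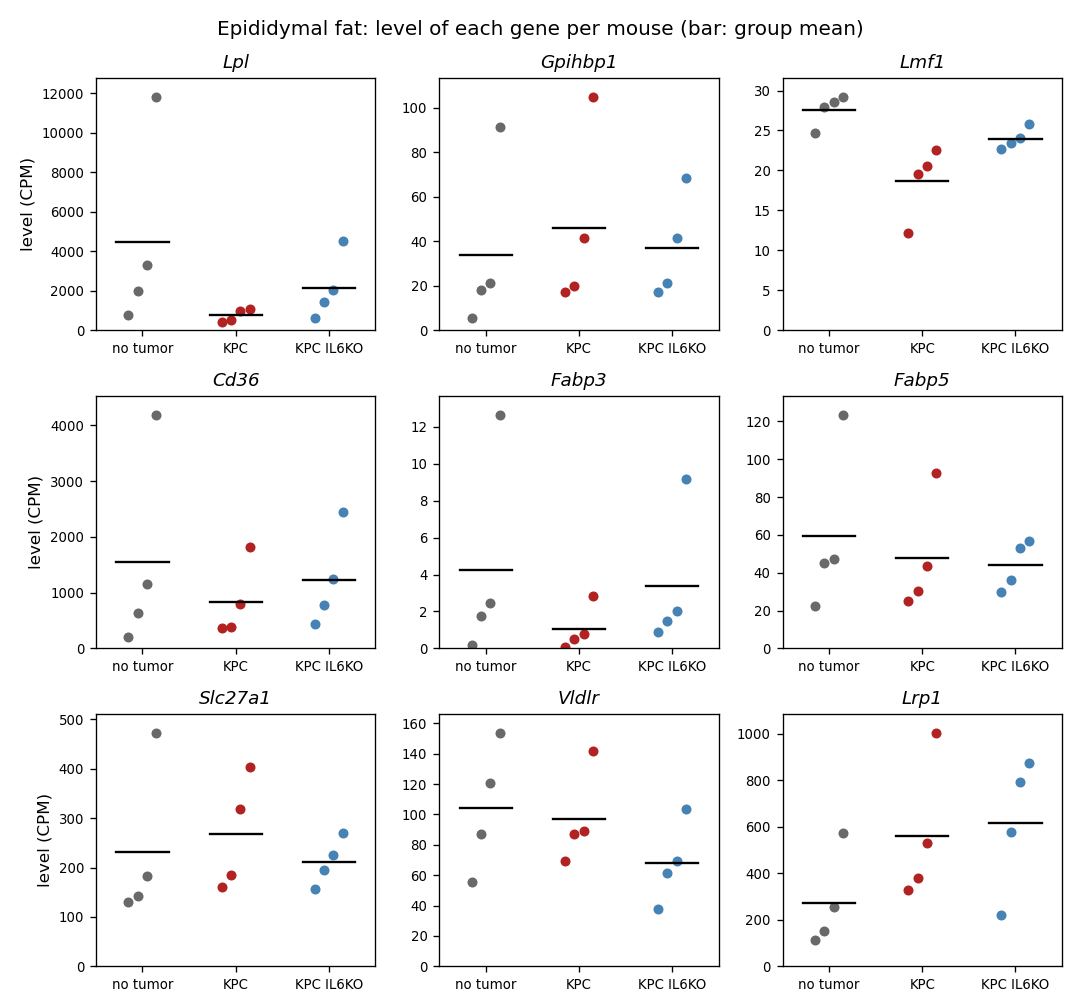
Level of each of the 9 members in epididymal fat, as normalized CPM on axes that start at 0, with one point per mouse and a bar at the mean of each group (n = 4 each). The no tumor mice spread widely for Lpl and Cd36, and Lmf1 alone has all KPC mice below both other groups. Over all genes in fat, KPC values did not overlap the no tumor group for 10.9% and the KPC IL6KO group for 4.33%.

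The counts in fat were 0 of 9 members called in KPC against no tumor, beside 0% of the 16962 genes up and 0% down by edgeR's quasi-likelihood test. For KPC IL6KO against no tumor the members called were 0, beside 0% up and 0% down of all genes, and for KPC against KPC IL6KO 0, beside 0% up and 0% down. Ranges did not overlap for 1, 0 and 1 members, against 10.9%, 2.01% and 4.33% of all genes, and the member was Lmf1 in both cases. At an unadjusted p under 0.05 there were 2 members (Lpl and Lmf1) and 2061 genes in the first comparison, and 0 members in the others beside 1584 and 1062 genes. DESeq2 called 364 genes up and 221 down, 281 up and 4 down, and 19 up and 106 down. The likelihood ratio test of edgeR called 268 and 145, 209 and 0, and 7 and 59.

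The related genes in fat were likewise not called. Of the lipase partners, fatty acid transport genes and lipoprotein receptors, 18, 17 and 19 were in the table, and none was called in the 3 comparisons by edgeR's quasi-likelihood test. At an unadjusted p under 0.05 by that test there were 4, 2 and 2 of them in KPC against no tumor, beside 2061 of all 16962 genes. There were 2, 4 and 5 in KPC IL6KO against no tumor, beside 1584, and 1, 3 and 1 in KPC against KPC IL6KO, beside 1062. In the same order, ranges did not overlap for 2, 4 and 2, for 0, 1 and 0, and for 0, 3 and 0 of them. The shares of all genes were 10.9%, 2.01% and 4.33%. Angptl4 averaged 110 CPM without tumor, 173 CPM in KPC mice and 259 CPM in KPC IL6KO mice. Fabp4, the most abundant gene of its list, averaged 3621, 3006 and 3055 CPM, and Acsl1, the acyl-CoA synthetase of adipocytes, 1011, 774 and 672 CPM. The spread between pads covered these differences.

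Per kilobase of merged exon, fat without tumor had Cd36 at 431 and Lpl at 426 CPM per kb, followed by Slc27a1 (39.8), Fabp5 (16.7), Lrp1 (15.4), Gpihbp1 (13.3), Vldlr (10.3), Fabp3 (5.18) and Lmf1 (2.03). Every pair of neighbours in this order overlapped between mice. Fabp3, at the top in muscle, came last but for Lmf1 in fat. By the longest coding transcript instead, Fabp3 was last (5.18), Lmf1 stood at 13.8 and Lpl (1085) was ahead of Cd36 (455).

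The difference between tissues in the response to KPC tumors was tested as a tissue by group interaction in a joint fit over the 12599 genes in both tables, with every sample taken as independent. The joint fit has its own scaling and spread, so its differences do not equal the subtraction of the values fitted within each tissue. It was called for 2 members, beside 38.6% of those genes. Vldlr differed by 2.09 on the log2 scale (SE 0.42, FDR 0.000766), beside 2.11 in muscle and -0.10 in fat from the separate fits, and kept its call when any single mouse was left out. Lpl differed by 2.70 (SE 0.98, FDR 0.0348), beside 0.25 in muscle and -2.57 in fat. The Lpl call was lost, at 1.57 to 2.76, when quadriceps no tumor mouse 1 or 3, quadriceps KPC mouse 4, fat no tumor mouse 6 or fat KPC mouse 7 or 8 was left out. Lrp1 differed in the other direction by -1.70 and was not called (FDR 0.0507). It was called by the likelihood ratio test (FDR 0.0318), by the newer quasi-likelihood fit of edgeR (FDR 0.0464) and, at -1.70 to -2.35, without quadriceps KPC mouse 2 or without fat no tumor mouse 6, KPC mouse 7, KPC mouse 8 or KPC IL6KO mouse 6. Cd36 differed by 1.96 (FDR 0.127) and was called without fat no tumor mouse 7 (2.33) or fat KPC mouse 5 (2.66). Fabp5 differed by -1.27 (FDR 0.113) and was called without fat no tumor mouse 6 (-1.91). For KPC IL6KO tumors 0 members were called, beside 0% of the genes, and Vldlr stood at 1.10 (FDR 0.524). Since the tissues were isolated and sequenced separately, tissue and processing cannot be told apart in the levels.

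The genes whose log2 CPM followed a member most closely over all samples of a tissue are given as a description, since samples share group and library composition. In the 11 quadriceps samples, Cd36 was closest to Gnmt (Pearson r = 0.98), Ddhd1 (0.97) and Slc1a1 (0.97), and Gpihbp1 to Pex3 (0.97), Cldn15 (0.96) and Tinagl1 (0.95). Lpl, which did not follow the groups, was closest to Rasip1 (0.93), Gcdh (0.90) and Myo1d (0.90). In the 12 fat samples, Gpihbp1 was closest to Kdr (0.99), the endothelial receptor of vascular endothelial growth factor, followed by Rbp7 and Adgrl4 (0.98 each). Cd36 in fat was closest to Ghr (0.99), Bnip3 (0.98) and Fabp4 (0.98), and Lpl to Olfml1, Lrrc4c and Chpt1 (0.98 each).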

How the data were processed

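Bulk RNA sequencing had been done on 11 quadriceps and 12 epididymal fat samples. The authors deposited whole-number read counts per gene, one table per tissue, made with STAR and featureCounts 1.5.1 on mm10 per the submitters' processing notes. The study's methods and the sample records name different TruSeq library kits. From these counts, edgeR 4.0.16 (R 4.3.3) was fitted per tissue on all 3 groups with TMM scaling and its quasi-likelihood test. Its low-count filter removed no gene. SE is the absolute log2 fold change divided by the root of the F statistic. CPM values are TMM scaled. A gene was called at FDR 0.05 or less and a fold of 1.5 or more. Ratios were compared by exact permutation, a test that was not planned beforehand. Intervals of log2 fold changes use the t distribution with the degrees of freedom of that test and cover the spread between mice, and the 3-count limit covers counting error only. The script was tested on simulated data. No library pair agreed within sampling noise. Replicate numbers label different mice and were not used as pairs. Alternatives covered normalization, filters, DESeq2 1.42.0, other edgeR tests, covariates and each mouse left out. The named genes were all 9 members, and, from lists of related genes, those with the largest called change in each direction, the highest level and a few fixed by role. Members and lists were chosen with earlier results of these data known. Gene positions and lengths are from GENCODE vM21.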

Additional observations from a re-analysis of the deposited data

Results flagged for a closer look

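In fat, 2 single values stood apart from the other 3 mice of their group. Fabp3 was at 9.20 CPM in KPC IL6KO mouse 8, where the gap to the next mouse took 0.862 of the group's range, and Slc27a1 was at 472 CPM in no tumor mouse 6, where the gap took 0.845. Both are above Dixon's 95% critical value for 4 samples, and 45 groups of 4 were examined, of which chance alone sets apart about 1 in 20. No tumor mouse 6 also held the highest Lpl, Cd36, Gpihbp1, Fabp5 and Lrp1 values of its group. The response to KPC tumors differed between quadriceps and fat, by an interaction test, for Lpl (2.70 on the log2 scale) and for Vldlr (2.09). The same test called 38.6% of all genes shared by both tissues. The Lpl call was lost when certain single mice were left out, with a lowest value of 1.57 without fat no tumor mouse 6.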

How the results depend on the processing

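In quadriceps, the calls of Vldlr, Cd36 and Fabp5 in both comparisons with KPC held under every alternative run, and that of Gpihbp1 did not, as given above. The number of members lower in KPC than no tumor muscle was 2 with upper quartile scaling, with 10 counts required in every library and with no minimum fold, and 1 to 2 with single mice left out, Lrp1 being the added call. In fat, DESeq2 called 1 member lower in KPC than no tumor mice (Lpl). Members called for the tissue difference in the KPC response numbered 1 to 3 with single mice left out. Among counts of members called, 310 alternative values stayed the same or within 1.5 times and 10 did not. The 310 include every count that was 0 by edgeR's quasi-likelihood test and stayed 0. Such counts were those of KPC IL6KO against no tumor muscle, of every fat comparison and of the tissue difference in the KPC IL6KO response. That test called 0% of all genes there, so an unchanged 0 is no sign of robustness. The 310 also include the run with no low-count filter, which could not differ because the filter removed no gene. Covariates other than Gpx5, the split by Gpx5 and the fit with no minimum fold were chosen after seeing the data. So were the ratios to marker sums or single markers and the permutation tests of these ratios. The causes of these shifts were not tested.

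A replicate block by mouse number, which labels different mice (correlations of same-numbered deviations -0.19 to 0.29 in muscle and -0.61 to 0.61 in fat), left 3342 genes up and 3701 down in KPC against no tumor muscle and Gpihbp1 at 0.53, not called. Log2 fold changes that turned sign with the replicate block were, in KPC against no tumor muscle, Lpl (-0.042) and Fabp3 (-0.0011). In KPC IL6KO against no tumor fat they were Cd36 (0.18), Fabp3 (0.33) and Slc27a1 (0.045), and in KPC against KPC IL6KO fat Gpihbp1 (-0.13) and Fabp5 (-0.061).

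All sign changes concerned members that were not called. Upper quartile scaling turned Lpl (-0.056) and Fabp3 (-0.15) in KPC against no tumor muscle and Lmf1 (-0.0070) in KPC IL6KO against no tumor muscle. The Gpx5 covariate turned Cd36 (0.21) and Fabp5 (0.14) in KPC against no tumor fat, Gpihbp1 (-0.084) in KPC IL6KO against no tumor fat, and Cd36 (0.66), Fabp3 (0.28) and Lrp1 (1.14) in KPC against KPC IL6KO fat. The adipocyte marker covariate turned Cd36 (0.54) and Fabp5 (0.31) in the first and Cd36 (0.70) and Lrp1 (0.46) in the last of these. Pads high in Gpx5 gave Cd36 1.09 and Fabp5 0.61 for KPC against no tumor, and pads low in Gpx5 gave Gpihbp1 -0.41 for KPC IL6KO against no tumor. Lpl relative to Adipoq or Plin1 alone was 0.090 or 0.64 for KPC against KPC IL6KO.

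With single mice left out, the values that turned sign spanned, in KPC against no tumor muscle, -0.20 to 0.50 for Lpl, -0.15 to 0.030 for Lmf1 and -0.14 to 0.38 for Fabp3. In KPC IL6KO against no tumor muscle they spanned -0.31 to 0.21 for Lpl, -0.083 to 0.069 for Lmf1, -0.25 to 0.16 for Cd36 and -0.18 to 0.23 for Slc27a1. In KPC against KPC IL6KO muscle they spanned -0.15 to 0.51 for Lpl, -0.49 to 0.10 for Fabp3 and -0.28 to 0.021 for Lrp1. In KPC against no tumor fat the ranges were -0.37 to 1.63 for Gpihbp1, -1.59 to 0.33 for Cd36, -0.85 to 0.33 for Fabp5, -0.069 to 0.81 for Slc27a1 and -0.35 to 0.14 for Vldlr. In KPC IL6KO against no tumor fat they were -1.74 to 0.090 for Lpl, -0.37 to 1.32 for Gpihbp1, -0.95 to 0.88 for Cd36, -1.55 to 1.20 for Fabp3, -0.71 to 0.20 for Fabp5 and -0.33 to 0.48 for Slc27a1. In KPC against KPC IL6KO fat they were -0.50 to 0.82 for Gpihbp1, -1.25 to 0.074 for Cd36, -0.41 to 0.34 for Fabp5, -0.59 to 0.073 for Lrp1 and -0.35 to 0.12 for Lpl relative to adipocyte markers. For the tissue difference in the KPC response they were -1.12 to 0.86 for Gpihbp1 and -0.43 to 0.43 for Slc27a1, and in the KPC IL6KO response -0.088 to 1.71 for Lpl, -1.52 to 0.15 for Gpihbp1, -0.85 to 0.95 for Cd36, -0.78 to 1.99 for Fabp3, -0.51 to 0.37 for Fabp5 and -0.35 to 0.42 for Slc27a1.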
